A study of Mus musculus with 10 samples.

Results

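The 10 genes considered here concern heat production in fat and were measured in epididymal white adipose tissue of obese male mice: the uncoupling proteins Ucp1, Ucp2 and Ucp3, and the thermogenic regulators and effectors Ppargc1a, Ppargc1b, Prdm16, Dio2, Elovl3, Fgf21 and Cpt1b. They were chosen by name, as every probe other than a control whose gene symbol on the array was one of the 10. This gave 13 probes of the 55681 on the array, and 10 of its 34797 symbols. Of these genes 7 had 1 probe, and Ucp3, Ppargc1a and Cpt1b had 2 each.

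The arrays held 10 mice, which formed a single group. C57BL/6JOlaHsd males, given as C57BL/6J in the sample characteristics, were 9 weeks old at the start. They were fed a purified low fat diet for 3 weeks and a high-fat diet for 12 weeks, all at 29 °C, and were then injected with desferrioxamine (DFO), an iron chelator, at 100 mg/kg body weight daily for 5 days. They were killed on day 6, at the start of the light phase, 2 h after food was taken away. RNA of each mouse was labelled with Cy5 and hybridised together with a Cy3-labelled pool of RNA from all mice of a wider study, uninjected control mice and these 10 mice included. Control mice were not analysed here as samples of their own, so no value below measures an effect of DFO. The dyes were not swapped, and a ratio away from 0 cannot be told apart from a dye effect; ratios were therefore compared between mice and never tested against 0.

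Uncoupling proteins are carriers of the inner mitochondrial membrane. Ucp1 lets protons flow back without ATP synthesis and is the defining protein of brown and beige adipocytes, whereas Ucp2 is known from immune cells and many other tissues and Ucp3 mainly from skeletal muscle and brown fat. Ppargc1a and Ppargc1b encode the PGC-1 coactivators of mitochondrial genes, Prdm16 is a transcriptional regulator that favours the brown over the muscle or white program, and Dio2 converts thyroxine to its active form inside the cell. White fat of mice kept warm is known for little or no Ucp1.

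The probes of the 3 uncoupling proteins are shown because the results turn on what they detect. Each is 60 bases long and is printed 5′ to 3′ with no base marked. In the mm9 coordinates of the scanner files, the Ucp1 probe lies at chr8:85821788-85821847, the Ucp2 probe at chr7:107647809-107647868, and the brighter Ucp3 probe, called probe 1, at chr7:107630399-107630458. Exon and UTR limits were not given in the sources used here.
Ucp1: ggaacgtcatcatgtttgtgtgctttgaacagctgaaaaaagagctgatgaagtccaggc
Ucp2: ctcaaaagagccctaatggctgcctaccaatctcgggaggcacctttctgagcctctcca
Ucp3 probe 1: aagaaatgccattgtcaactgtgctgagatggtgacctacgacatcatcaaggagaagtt
The dimmer Ucp3 probe, probe 2, lies further along the same chromosome at chr7:107634291-107634350. No protein-coding gene of the RefSeq table lies between Ucp3 and Ucp2.

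A probe was counted as expressed where the scanner software set its flag for a Cy5 signal well above background on 5 or more arrays. This held for 10 of the 13 probes, of 8 genes, beside 49.9% of all probes on the array. It held on all 10 arrays for 7 of the 13, beside 41.9%. Over the arrays the median Cy5 signal of all probes was 54.84 to 81.29 scanner units, the median Cy5 local background 32 to 37, and no spot was saturated.

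Ucp1 and Elovl3, a brown fat enzyme that elongates very long chain fatty acids, did not reach that level. The Ucp1 probe was well above background in Cy5 on 1 array, that of mouse 4, and in the Cy3 pool on none. Its Cy5 signal was 65.5 in mouse 4 and between 37.3 and 58.5 in the other mice, beside a local background of 33 to 46. Elovl3 was flagged on no array in either channel, with Cy5 signals of 31.6 to 58.2 on a local background of 31 to 41. The arrays therefore give no more than a bound on both genes, and no difference between mice. The second Ppargc1a probe was likewise flagged on 1 array, that of mouse 2, with a signal of 70.0 beside 40.5 to 50.2 in the other mice.

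**Figure D1:**
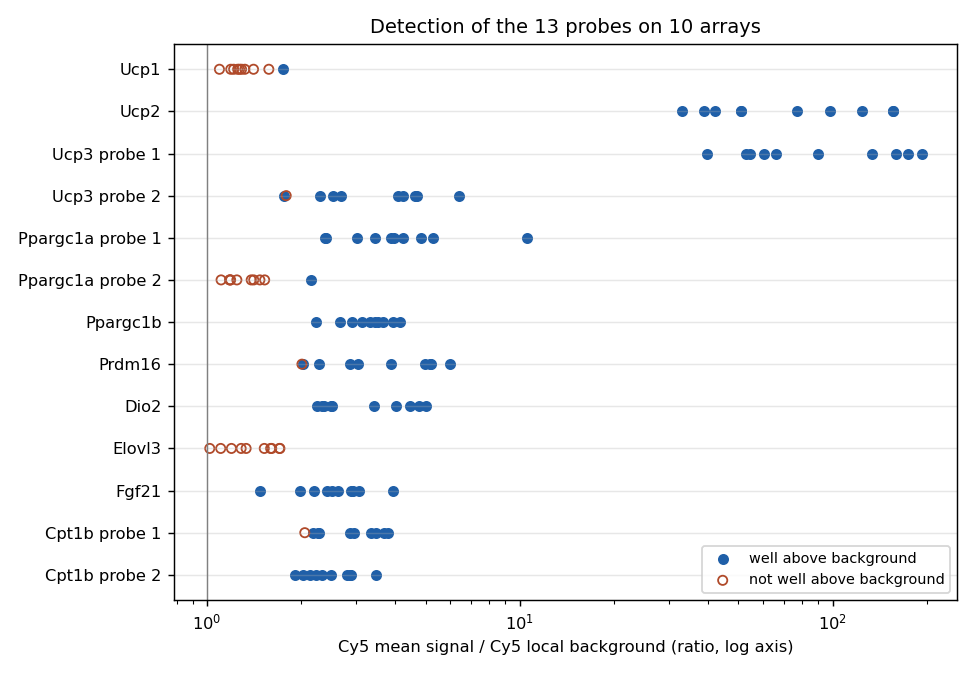
Cy5 mean signal divided by Cy5 local background (log axis) for each of the 13 probes, 1 point per mouse. Filled points were flagged well above background and open ones were not. Ucp1 has 1 filled point, Elovl3 none, and the Ucp2 and Ucp3 probe 1 signals stand far to the right of their background in every mouse.

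How far the mice differed from each other was measured against the pool, which was the same RNA on every array and so shows the technical spread in Cy3. It does not show the spread of the Cy5 dye or of preparing and labelling the RNA of each mouse. A larger spread in Cy5 may hold these parts as well as differences between mice, and they were not told apart. Standard deviations (SD) of log2 Cy5 and log2 Cy3 over the 10 arrays were compared with a test of equal variance in paired data (Pitman-Morgan), and p-values were adjusted by Benjamini-Hochberg over 25049 probes. Cy5 varied more than Cy3 at 7 of the 10 expressed member probes, of 6 genes, beside 59.8% of all probes tested; Cy5 varied less at 0.164% of all probes and at no member. The log2 ratio of mouse to pool had a median SD between mice of 0.378 over the expressed member probes and 0.177 over all expressed probes.

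**Figure D2:**
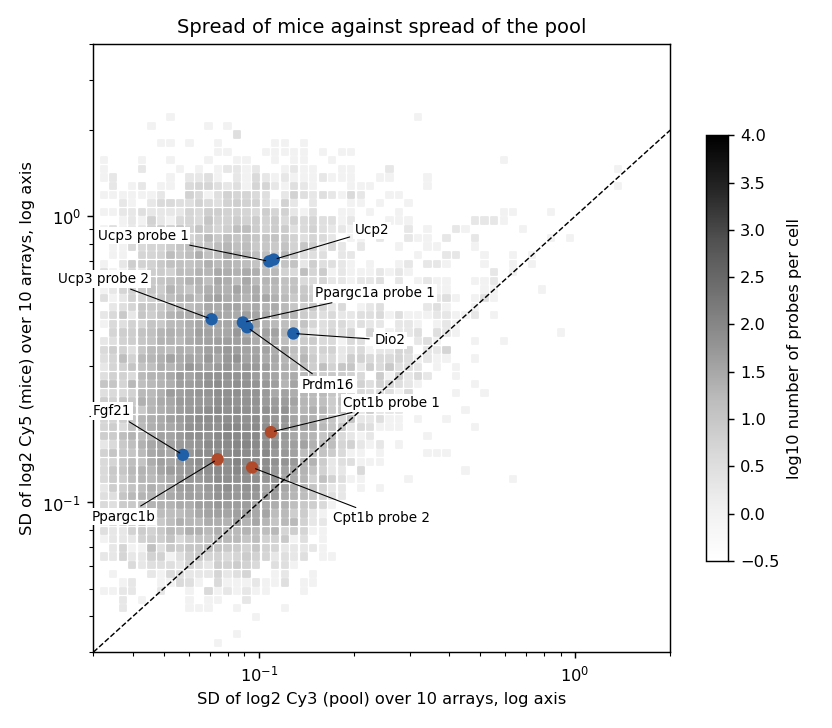
SD of log2 Cy5 (mice) against SD of log2 Cy3 (pool) over 10 arrays, both on log axes, with grey cells for the number of all probes and a dashed line of equal SD. Blue members passed the test and red ones did not. Ucp2 and Ucp3 probe 1 are the highest of the members, with Cy5 SDs of 0.706 and 0.696, and the Cpt1b probes and Ppargc1b lie near the line.

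All mice together fell into separate sets over the expressed probes. The first principal component held 75.1% of the variance, and mice 4, 5, 6 and 7 stood on one side of it with a gap of 0.513 of its range to the other 6. The second component held 8.81% and was carried by mouse 2. On the marker lists the mean log2 ratio of 7 expressed adipocyte genes (of 8) was -2.49 to -1.41 in mice 4 to 7 and -0.19 to 0.60 in the others. That of 10 macrophage genes was 0.54 to 0.73 in mice 4 to 7 and -0.80 to 0.03 in the others. Not every macrophage gene ran this way. Cd163 was -0.17, -0.24, -0.28 and -0.11 in mice 4 to 7, below all its values in the other mice. In such whole-tissue RNA, fewer cells of a type and less RNA per cell cannot be told apart. These mice carry no label that sets them apart, so they were not tested as a group. The split comes from these same data and is used below to order values and to limit some correlations to the other 6 mice. Genes that part mice 4 to 7 from the rest follow this main split of the expressed probes. The share of expressed probes that do so is not given here. Each of the 5 slides held 2 arrays, and no probe differed between slides by limma's moderated F test (adjusted p), while 4.1% of probes passed an unadjusted p of 0.05. Among the members the lowest unadjusted p for slide was 0.0611, of Ucp2.

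Ucp2 was well above background on every array in both channels and varied widely between mice. Its log2 ratio to the pool was 0.49, 0.61, 0.62 and 0.79 in mice 4, 5, 6 and 7. It was -0.32, 0.14 and -0.11 in mice 1, 2 and 3, and -0.51, -0.92 and -0.77 in mice 8, 9 and 10. Mice 4 to 7 were thus the 4 highest, and mouse 9 the lowest, a range of 1.71 on the log2 scale. Before normalization Cy5 signals ran from 1088 in mouse 3 to 6218 in mouse 7. The mean was 0.003 ± 0.62 (SD, n = 10), and on the scanner's own log10 scale it was 0.0001 ± 0.202, from -0.284 to 0.252. The SD of Cy5 was 0.706 and that of Cy3 0.111, a ratio of 6.34 (adjusted p = 1e-05, Pitman-Morgan test).

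The 2 probes of Ucp3 ran in opposite directions. Probe 1 gave log2 ratios of 0.65, 0.75, 0.66 and 0.76 in mice 4 to 7. In mice 1, 2 and 3 it gave -0.22, 0.08 and -0.06, and in mice 8, 9 and 10 it gave -0.53, -0.70 and -0.65. Probe 1 was therefore high and low in the same mice as Ucp2. Probe 2 gave -0.35, -0.78, -0.41 and -0.67 in mice 4 to 7. It gave 0.25, -0.02 and 0.09 in mice 1, 2 and 3, and 0.15, 0.57 and 0.23 in mice 8, 9 and 10. In each of the 10 mice the probes had opposite signs.

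Probe 1 of Ucp3 differed from Ucp2 by at most 0.22 on the log2 ratio scale in any mouse and had its sign in 10 of 10 mice. In the 6 mice 1, 2, 3, 8, 9 and 10, the correlation of probe 1 with Ucp2 was r = 0.982, and that of probe 1 with probe 2 was r = -0.757. As a description of the array, 4731 symbols had at least 2 expressed probes. Their median r over the same 6 mice was 0.448, and 1.35% of them (64 symbols) were as low as Ucp3 or lower. Of the 2116 symbols whose probes both varied more in Cy5 than in Cy3, 0.803% were. The opposite signs held with the scanner's own ratio in 10 mice and with the deposited values in 9, but median centring in place of loess gave r = -0.108 and equal signs in 3 mice.

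Both Ucp3 probes varied more between arrays in Cy5 than in Cy3. The SD of probe 1 was 0.696 in Cy5 and 0.108 in Cy3, and that of probe 2 was 0.437 in Cy5 and 0.0709 in Cy3 (adjusted p = 0.00015 for probe 2, Pitman-Morgan test). Cy5 signals of probe 1 ran from 1348 to 7524. Those of probe 2 ran from 59.1 to 218, and probe 2 was not well above background in mouse 5, its lowest. The array annotation listed 3 Ensembl transcripts for probe 1 and 1 for probe 2, with 0 in common. Which transcripts each probe binds was not tested. Whether probe 1 also detects RNA of Ucp2, whose Cy5 signals were of like size (1088 to 6218), was not tested either. A level of Ucp3 in these mice therefore cannot be given as a single value.

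**Figure D3:**
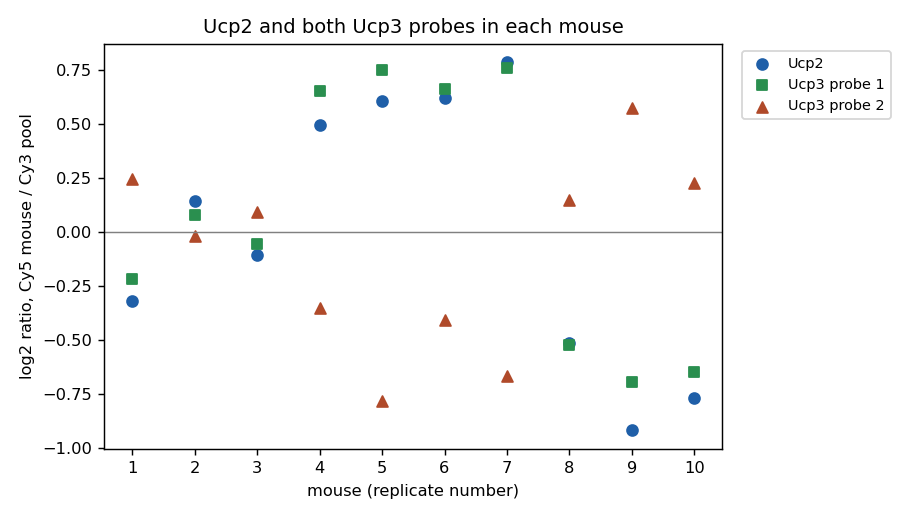
Log2 ratio of each mouse to the pool for Ucp2, Ucp3 probe 1 and Ucp3 probe 2, by mouse. Ucp2 and probe 1 lie close together, with at most 0.22 between them, and probe 2 lies on the other side of 0 in every mouse.

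Skeletal muscle was examined because Ucp3 and Cpt1b are both known from it. Of 12 muscle markers 4 were expressed (Acta1, Myl1, Pvalb and Tnni2), and Ckm, Mb, Myh1, Myh2 and Myh4 were not. The mean of the 4 was 0.32, 0.18 and 0.32 in mice 1, 2 and 3, -0.93 to -0.22 in mice 4 to 7, and -0.17, 0.05 and -0.02 in mice 8, 9 and 10. The 4 did not run together, since Tnni2 was 0.22, 0.34, 0.55 and 0.36 in mice 4 to 7, its 3 highest values among them. Ucp3 probe 1 had r = 0.721 with this mean in the 6 mice (exact permutation test over 6 mice, two-sided, adjusted p = 0.214), and probe 2 had r = -0.214.

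Correlations over mice were planned for 13 pairs of members or of a member and a list, and 11 could be run, since Ucp1 and Elovl3 were not expressed. The p-values below were adjusted over the 11. Where a measure separated mice 4 to 7 from the others, r was taken over the other 6 mice alone. Ucp2 followed the mean of the macrophage list, with r = 0.987 and rho = 1 in 6 mice. The exact two-sided permutation test gave p = 0.00278 for both, the smallest possible here for rho. After adjustment that test gave p = 0.0153 for r and 0.0306 for rho. Against the adipocyte list Ucp2 had r = -0.927 (exact permutation test, adjusted p = 0.0153) and rho = -0.943 (exact permutation test, adjusted p = 0.0917). Without the 2 mice farthest from the median of Ucp2, r was 0.977 and -0.905, over 4 mice. The adipocyte relation depended on the normalization, with r = -0.06 under median centring. Likeness to other genes was ranked by r over all 10 mice, which includes the difference between mice 4 to 7 and the rest; over the 6 mice alone r was 0.721 to 0.998 for the genes so named. The 3 genes most like Ucp2 were Renbp (r = 0.996), C3ar1 (0.995) and Cd72 (0.994); those most like Ucp3 probe 1 were Ttyh3, Tpd52 and Adcy7 (0.998, 0.997 and 0.996), and those most like probe 2 were Brp44l, Ap3b2 and Acaca (0.980, 0.980 and 0.979).

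The PGC-1 coactivators were set apart by 1 mouse. Ppargc1a, by its probe 1, reached a log2 ratio of 0.84 in mouse 2, while the remaining 9 lay between -0.66 and -0.04. Mouse 7 was the lowest, and no other mouse was above 0. The mean was -0.25 ± 0.42 (SD, n = 10), and the SD was 0.426 in Cy5 and 0.0891 in Cy3 (adjusted p = 0.00068, Pitman-Morgan test). Without mouse 2 the same test gave an adjusted p of 0.0892, and on the scanner's own signals 0.0807. The Cy5 signal was 390 in mouse 2 and 81.0 to 195 in the others.

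Ppargc1b had its lowest value in the same mouse. Its log2 ratio was -0.26 in mouse 2 and 0.01 to 0.30 in the other 9, with a mean of 0.12 ± 0.17 (SD, n = 10). Its Cy5 SD of 0.142 did not pass against the Cy3 SD of 0.0741 (adjusted p = 0.120, Pitman-Morgan test), although it did without background correction (adjusted p = 0.0138). The gap from mouse 2 to the nearest mouse was 0.584 of the whole range for Ppargc1a and 0.485 for Ppargc1b, both past Dixon's 95% critical value for 10 samples. The gap of Ppargc1a passed under each of the 5 scalings tried (0.532 to 0.628), whereas that of Ppargc1b passed only with normexp and loess and was 0.147 to 0.431 under the other 4. Of all probes tested 5.18% passed it, and mouse 2 was the far mouse in 38.1% of those.

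Over 10 mice Ppargc1a and Ppargc1b had r = -0.841 (permutation test with 100000 resamples, two-sided, p = 0.0105, adjusted p = 0.0385) and rho = -0.479 (permutation test, adjusted p = 0.321). Without the 2 mice farthest from the median of Ppargc1a, r was -0.206, and without mouse 2 alone -0.468, so the relation rests on those mice. Ppargc1a had r = 0.934 with the mean of the brown and beige list in 6 mice (exact permutation test, p = 0.0306, adjusted p = 0.084), and 0.448 without the 2 farthest. Mouse 2 also stood apart on markers of other cells. The mean of the 3 motile cilia genes expressed (of 8) was 1.83 in mouse 2 and -1.65 to -0.77 in the others, with Foxj1, Dnah5, Dnah11, Ccdc39 and Spag6 not expressed. The mean of 3 sperm genes (of 6) was -1.02 in mouse 2 and -2.79 to -2.10 in the others. The part of these cells in the Ppargc1a value was not tested. The genes most like Ppargc1a were Dnaja4, Tpm2 and Rasd2 (r = 0.985, 0.981 and 0.979), and those most like Ppargc1b were Selk, Ncoa4 and Golga5 (r = 0.914, 0.894 and 0.892).

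**Figure D4:**
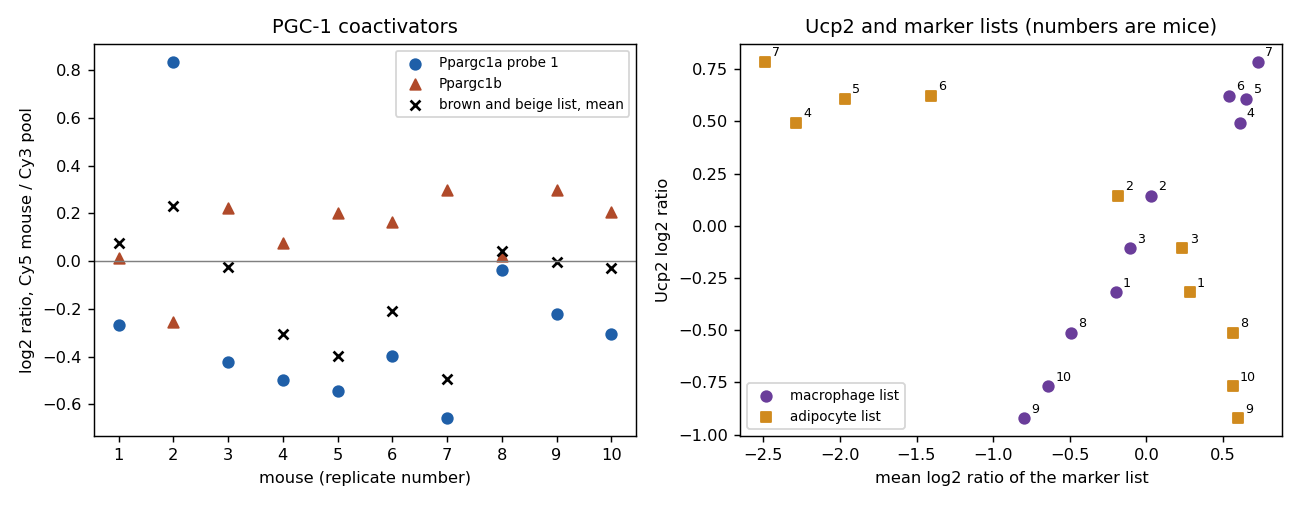
Left, log2 ratio to the pool of Ppargc1a probe 1, Ppargc1b and the mean of 26 brown and beige genes in each mouse. Right, the log2 ratio of Ucp2 against the mean log2 ratio of the macrophage and adipocyte lists, numbered by mouse. Mouse 2 has the highest Ppargc1a (0.84) and the lowest Ppargc1b (-0.26), and mice 4 to 7 have the highest Ucp2.

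Prdm16 was low in mice 4 to 7, where its probe was dim, with Cy5 signals of 65.4 to 94.6 on a local background of 32 to 35. Its log2 ratio was -0.30, -0.51, -0.36 and -0.78 in those mice, of which mouse 5 was not well above background. It was 0.45, 0.35 and 0.23 in mice 1, 2 and 3, and 0.32, 0.08 and 0.12 in mice 8, 9 and 10. These 6 were all above 0 and did not overlap the other 4. The same mice were parted on the first component, with 75.1% of the variance over expressed probes, so the split is not particular to Prdm16. The Cy5 SD was 0.410 and the Cy3 SD 0.0919 (adjusted p = 0.0011, Pitman-Morgan test). This call was lost on the scanner's own signals (adjusted p = 0.0552). The gene most like it over the 10 mice was Cox8b (r = 0.982), a cytochrome c oxidase subunit used as a marker of brown fat, followed by Wbscr27 (0.979) and Yipf2 (0.977). Over the 6 mice alone these were 0.751, 0.818 and 0.943, another order. Against the adipocyte list in the 6 mice, Prdm16 had r = -0.564 (exact permutation test over 6 mice, adjusted p = 0.351).

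Dio2 ran the other way. Its log2 ratio was 0.48, 0.32, 0.37 and 0.26 in mice 4 to 7 and 0.14 and 0.07 in mice 2 and 3. It was -0.42 in mouse 1 and -0.32, -0.41 and -0.17 in mice 8, 9 and 10. Mice 4 to 7 were thus the 4 highest, as they were on the scanner's scale. In the deposited values, centred on the mean over mice, mouse 3 (0.36) lay above mice 6 (0.30) and 7 (0.29). The probe was dim, with Cy5 signals of 65.2 to 162. The Cy5 SD was 0.390 and the Cy3 SD 0.129 (adjusted p = 0.0047, Pitman-Morgan test), and the call was lost with slide as a block (adjusted p = 0.228) and without normalization between arrays (adjusted p = 0.0569). Dio2 had r = -0.732 with the adipocyte list in 6 mice (exact permutation test, adjusted p = 0.193), and the sign turned without the 2 farthest mice (r = 0.438). The genes most like it were Gm4832, Rnaseh2a and Stk11ip (r = 0.968, 0.959 and 0.956).

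Fgf21, a hormone of fasting and cold that acts through the coreceptor Klb, varied little. Its log2 ratio was lowest in mouse 8 (-0.18), had a median of 0.001 and was highest in mouse 6 (0.31), and mice 4 to 7 were on both sides of 0. The direction of mouse 8 turned with the scaling: its log2 ratio was 0.66 on the scanner's scale, and its deposited value lay 0.34 above the mean of the 10 mice. Centred in that way, the deposited values were highest in mouse 3 (0.59) and lowest in mouse 10 (-0.39). The SD of the loess ratio was 0.14. Its Cy5 SD of 0.147 passed against the Cy3 SD of 0.0576 (adjusted p = 0.0253, Pitman-Morgan test), but not without mouse 6 (adjusted p = 0.463) or without mouse 8 (adjusted p = 0.0604), whose spot had a Cy5 local background of 117.5. The probe holds 20% G and C. The genes most like Fgf21 were Med30, Rbm3 and Cstf1 (r = 0.888, 0.870 and 0.869).

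Cpt1b, the muscle and brown fat form of the enzyme that passes long chain fatty acids to mitochondria, was near the detection limit on both probes. Probe 1 was well above background on 9 arrays in Cy5 and 7 in Cy3, and probe 2 on 10 and 5. Probe 1 was lowest in mouse 7 (-0.30) and highest in mouse 8 (0.32), and probe 2 lowest in mouse 9 (-0.38) and highest in mouse 8 (0.19). The extreme mice changed with the scaling. In the deposited values, centred on the mean over mice, both probes were highest in mouse 3 (0.65 and 0.63). Both were lowest in mouse 7 there (-0.62 and -0.35). On the loess ratio the probes had the same sign in 9 of 10 mice, with r = 0.919 in the 6 mice. Neither passed the test of its variance (adjusted p = 0.251 and 0.292, Pitman-Morgan test). The genes most like probe 1 were Adra1d, Usp19 and Tcf7l2, and those most like probe 2 were Hs3st1, Pdgfrb and Akt2.

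**Figure D5:**
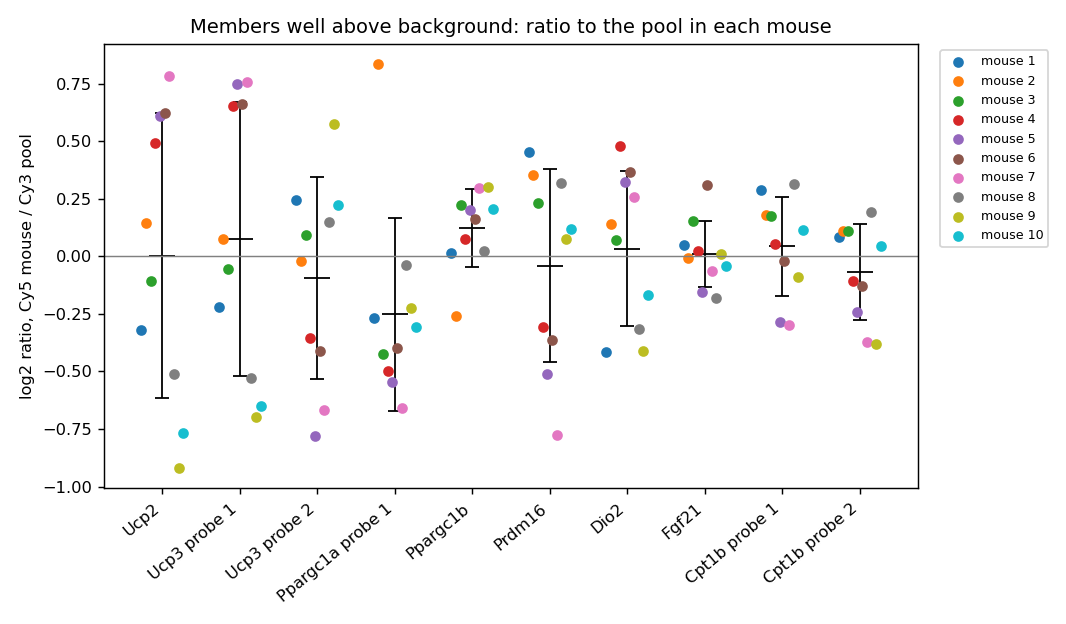
Log2 ratio of each mouse to the pool for the 10 expressed member probes, coloured by mouse, with bars for the mean ± SD of 10 mice. Ucp2, Ucp3 probe 1 and Dio2 are high in mice 4 to 7, Prdm16 and Ucp3 probe 2 are low in them, and mouse 2 stands alone for Ppargc1a. Mice 4 to 7 also stand apart on the first component of all expressed probes.

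The size of these ratios depends on the processing. The SD of the scanner's own log ratio was 1.07 to 3.75 times that of the loess ratio over the 10 probes. The factor was 1.07 for Ucp3 probe 1 and 1.08 for Ucp2. The scanner's ratio differs in background subtraction, offset and normalization at once, and which of them sets the factor was not tested. The log10 ratio of the scanner ran from -0.227 in mouse 9 to 0.239 in mouse 7 for Ucp3 probe 1 and from -0.678 in mouse 5 to 0.291 in mouse 9 for probe 2. It ran from -0.353 in mouse 7 to 0.310 in mouse 2 for Ppargc1a probe 1, and from -0.185 in mouse 2 to 0.197 in mouse 7 for Ppargc1b. Mouse 2 was the highest for Ppargc1a and the lowest for Ppargc1b on this scale too, but its gap for Ppargc1b (0.431 of the range) no longer passed Dixon's value. The scanner's log10 ratio was -0.602 in mouse 7 and 0.245 in mouse 1 at the ends of Prdm16, -0.306 in mouse 8 and 0.381 in mouse 4 for Dio2, and -0.124 in mouse 5 and 0.209 in mouse 6 for Fgf21. For Cpt1b it ran from -0.333 in mouse 7 to 0.263 in mouse 8 by probe 1 and from -0.237 in mouse 9 to 0.510 in mouse 8 by probe 2. The scanner's ratios of Ucp1, from -0.405 to 0.301, and of Elovl3, from -0.0102 to 0.442, are of signals that were not well above background. The exception was the Cy5 signal of Ucp1 in mouse 4, but the Cy3 signal of that spot was not well above background.

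Among 120 other genes of the same pathways, 103 were expressed. Cy5 varied more than Cy3 at 73 of the 99 that could be tested, beside 59.8% of all probes, and the median SD of their log2 ratio was 0.257. A list gene was tested by its brightest expressed probe, whereas that share covers all tested probes, so their bases differ. The list counts here and below were not tested against that share. In the brown and beige adipocyte list 26 of 31 genes were expressed, and Lhx8, Tmem26, Tbx1, Slc27a2 and Bmp8b were not. Of 25 tested, 20 passed. The lowest value lay in mouse 4, 5, 6 or 7 for 18 of the 26 (69.2%), beside 45.2% of all expressed probes. Nrg4, a factor secreted by brown fat, ran from -2.03 in mouse 7 to 0.83 in mouse 9, and Cidea, a lipid droplet protein, from -1.85 in mouse 7 to 0.62 in mouse 2. Not all members ran this way: Acot11, a thioesterase, was highest in mouse 7 (1.01) and lowest in mouse 9 (-0.73). Letmd1 had an SD of 0.04, the smallest in this list.

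Of the other carriers of the family 8 of 9 were expressed and 5 passed, beside 59.8% of all probes tested. Their SDs ran from 0.09 (Slc25a20, the carnitine carrier) to 0.30 (Slc25a4, an ADP/ATP carrier). Genes of creatine and calcium cycling, which can produce heat without Ucp1, passed at 7 of 8 tested, beside the same share. Ckb, the brain-type creatine kinase, ran from -1.30 in mouse 9 to 1.19 in mouse 4, and the creatine transporter Slc6a8 from -1.24 in mouse 9 to 0.95 in mouse 4, each with its 4 highest values in mice 4 to 7. Alpl, a phosphatase, was lowest in mouse 5 (-0.81).

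Partners and targets of PGC-1 passed at 13 of 20 tested, beside 59.8% of all probes tested. Esrra, the nuclear receptor ERRα, had an SD of 0.08, whereas Pparg, the master regulator of adipocytes, ran from -1.01 in mouse 7 to 0.59 in mouse 9, and the corepressor Nrip1 from -1.13 in mouse 7 to 0.62 in mouse 9. Hnf4a was 1.66 in mouse 2 and -2.17 to -1.64 in the others, and Esrrg was also highest in mouse 2 (0.68). PRDM16 partners passed at 5 of 8, beside the same share. Zfp423, a repressor of the brown program, ran from -1.54 in mouse 7 to 0.52 in mouse 9, and Ctbp1 had an SD of 0.04.

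Thyroid hormone genes passed at 4 of 6. The share of all probes tested, 59.8%, stands beside this count and those of the next 3 lists. Thrsp, a lipogenic target of the hormone, ran from -2.39 in mouse 4 to 1.01 in mouse 9, and its receptor Thrb from -1.10 in mouse 7 to 0.39 in mouse 9. Of the elongases 3 of 4 passed. Elovl6 was lowest in mouse 7 (-1.15) and Elovl7 highest in mouse 2 (1.24). In the FGF21 list 9 of 11 passed: Klb ran from -1.69 in mouse 4 to 0.58 in mouse 9, and the receptor Fgfr4 was 1.78 in mouse 2 and at most -0.91 elsewhere. The carnitine palmitoyltransferase list passed at 7 of 9. Cpt1a, the liver form, was highest in mouse 7 (0.64) and lowest in mouse 9 (-0.18), while Cpt2 was lowest in mouse 7 (-0.88) and Acacb, which makes the inhibitor malonyl-CoA, lowest in mouse 7 (-1.50). The smallest SDs in these lists were those of Usp33 (0.10) among the thyroid hormone genes, Elovl5 (0.18) among the elongases, Fgfr2 (0.13) in the FGF21 list, Cpt1c (0.11) in the carnitine palmitoyltransferase list and, in the creatine and calcium list, Ckmt1 (0.14).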

How the data were processed

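Agilent 8x60K 2-colour arrays of 10 mice were used. The authors deposited scanner output with Cy5 and Cy3 intensity, local background, detection flags and a log10 ratio per spot (Agilent Feature Extraction 10.7.3.1, named in the submitters' processing notes), and a table of normalized log2 values, whose columns correlated with log2 Cy5 at r = 0.9938 to 0.9992 and had equal medians (8.519), and whose normalization was not given in the sources used here. Here intensities were background-corrected (normexp, offset 50) and loess-normalized within arrays with limma 3.58.1 in R 4.3.3, leaving out control and outlier spots (0.482%). Spots of a probe were averaged. Channel SDs were taken after Aquantile normalization. Thresholds were an adjusted p of 0.05. The variance test ran over 25049 probes flagged on at least 5 arrays in both channels, and the slide and far-mouse tests over 27718 expressed probes with a value on every array, in Python 3.11.15 with scipy 1.17.1, and were tested on simulated data. For lists, the brightest expressed probe stood for a gene. All 10 mice formed 1 group. The labels do not say whether slides differ otherwise, and p-values measure the spread between these samples. The number of arrays limits the precision. Named genes were the members, the list genes with the highest or lowest SD or 1 far mouse, and the 3 symbols most like each member. Cidea, Acot11, Slc6a8, Alpl, Pparg, Nrip1, Thrb, Elovl6, Klb, Cpt1a and Cpt2 fall outside this rule and were chosen after their values were seen. Members and lists were chosen with earlier results of these data known. A gene of the lists is not reported here.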

Additional observations from a re-analysis of the deposited data

Results flagged for a closer look

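A sample counted as far from the others where its gap to the nearest mouse, as a share of the range of all 10, passed Dixon's 95% critical value; chance gives about 1 in 20 such groups, and 5.18% of expressed probes had one. Mouse 2 was far above the others for Ppargc1a probe 1 (0.584) and far below them for Ppargc1b (0.485), the latter with normexp and loess only. Of 103 expressed genes of the pathway lists 7 had a far mouse, and in 5 it was mouse 2: Hnf4a (0.863), Fgfr4 (0.775), Esrrg (0.697), Mpzl2 (0.621) and Elovl7 (0.603), each highest in it. The other two were Slc25a27, lowest in mouse 7 (0.551), and Ckmt1, highest in mouse 4 (0.493). Among list means, mouse 2 was far above the others for motile cilia (0.748), fatty acid elongases (0.704) and sperm (0.609), and mouse 3 for the single expressed epididymis gene, Lcn12 (0.548). No explanation of these values was tested.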

How the results depend on the processing

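Probes varying more in Cy5 than in Cy3 numbered 14970 as reported, 7322 on the scanner's own signals and 4684 without normalization between arrays. The median SD of the members' log2 ratio was 0.378 and became 0.657 on the scanner's ratio, and 0.290 to 0.395 leaving out 1 mouse. Relations past the threshold numbered 3 as reported, 1 under median centring, 1 on the deposited values and 0 without the 2 farthest mice. For pairs run over 6 mice, that removal leaves too few for 1 pair to pass after adjustment unless most pairs did. The number was 0 with slide as a block (where 5 within-slide differences cannot give p under 0.05). It was 0 to 5 leaving out 1 mouse (0 without mouse 2, 3 or 10, 1 without mouse 9, 5 without mouse 1). Probes with 1 far mouse numbered 1435 as reported, 3693 without a detection filter and 6316 under median centring, under which the median ratio over expressed probes was 0.324 in place of 0.003 (log2). On the scanner's signals the log2 of Cy5 over Cy3 SD turned negative for Cpt1b probe 1 (-0.33) and probe 2 (-1.30, adjusted p = 0.0374), and the larger Cy5 spread was lost for Ppargc1a (adjusted p = 0.0807), Prdm16 (0.0552) and Fgf21 (0.707). Without normalization between arrays it was lost for Dio2 (0.0569) and Fgf21 (0.963), and with slide as a block for Fgf21 (0.0778) and, as given above, for Dio2. For Ucp2 and Ucp3 probe 1 the larger Cy5 spread held under the 18 alternatives run. For Ucp3 probe 2 it held under 17, since the filter on all 10 arrays drops that probe. Leaving out 1 of the 6 mice, r of Ucp2 with the macrophage list stayed between 0.980 and 0.997, with adjusted p over the threshold without mouse 2, 3, 9 or 10. With so few mice, the smallest p of 1 pair passes the adjustment only if other pairs have a small p too. These losses therefore cannot be read as a weaker relation. Signs of r turned for pairs that passed no test: Cpt1b with muscle (-0.0899 without background correction, -0.183 to 0.704 leaving out 1 mouse), Fgf21 with adipocyte genes (0.153 without background correction, 0.161 on the scanner's ratio, 0.129 with slide as a block), Prdm16 with adipocyte genes (0.301 under median centring, 0.971 with slide as a block), Dio2 with adipocyte genes (0.438 without the 2 farthest mice), Ucp3 with muscle (-0.854 with slide as a block, -0.214 with its other probe) and Ucp3 with Cpt1b (-0.855 with slide as a block, -0.0308 as a mean of probes, -0.703 with the other Ucp3 probe, -0.0453 to 0.694 leaving out 1 mouse). The values with slide as a block use all 10 mice, and so are not over the same 6 mice as the reported r. They include slides 2 and 4, where 1 mouse of mice 4 to 7 was paired with a mouse outside them. The other Ucp3 probe was tried after seeing the data. The cause of these changes was not tested. Ratios of dim members are limited by their signal over background. No paired analysis was possible because the mice form 1 group.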
